A study of Homo sapiens with 18 samples.

Results

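Wide open-chromatin regions that lie away from gene starts were described in Ccd18-Co, an established line of human colon fibroblasts, by the assay for transposase-accessible chromatin with sequencing (Omni-ATAC-seq, in which a transposase inserts adaptors into open DNA). A wide distal peak was defined as an autosomal peak of at least 1000 bp whose centre lay more than 3000 bp from every transcript start annotated in GENCODE release 44 on hg38, for all gene types. Of 334857 peaks in the deposited count table, 4307 met this rule, or 1.29%. The rule used width and position and no counts, although the width of a peak was itself set by peak calls over these libraries. The other autosomal peaks were 10167 wide peaks near a start, 226810 narrow distal peaks and 83212 narrow peaks near a start.

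The 18 libraries formed 3 groups of 6, named after their titles. Unstimulated cells received no cytokine. DMSO cells received 3 pulses of a cytokine mix, with TNF, OSM and IL-17A at 10 ng/ml each and IL-1β at 0.1 ng/ml, each pulse lasting 72 h with 96 h of recovery, and after 1 week of rest were given the solvent DMSO for 5 days. Belinostat cells had the same pulses and rest and then 250 nM belinostat, a histone deacetylase inhibitor, for 5 days. Doses of IL-1β and belinostat are printed as labelled, and the study's methods and legends also name different ones. Both pulsed groups were collected 2 weeks later, so each was measured long after its treatment. All groups came from 1 cell line in culture, and the labels do not say that the 6 libraries of a group came from separate cultures, so the p-values measure the spread between these libraries, which may be technical. DMSO against unstimulated is called the cytokine contrast, belinostat against DMSO the belinostat contrast, and belinostat against unstimulated the residual contrast. These contrasts share groups, so their values are set side by side and were not correlated. The labels give neither solvent nor collection time for the unstimulated group. Cytokine pulses, solvent and time in culture therefore cannot be told apart in the cytokine contrast, and the residual contrast has the same limit.

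Enhancers are stretches of DNA, often far from the gene they control, where transcription factors displace nucleosomes and leave the DNA open to a transposase. Factors of the AP-1, TEAD and RUNX families are known to occupy many enhancers of fibroblasts, and histone deacetylases remove acetyl groups that mark active enhancers. A wide peak may hold several neighbouring sites of this kind, or a long stretch that is open at a low level, and the peak width alone does not separate these.

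The sequences of 9 wide distal peaks are shown because they had the largest changes by the naming rule in each direction of the cytokine and belinostat contrasts, leaving out 1 chromosome, with the peak of the highest read density last. Each is the central 300 bp on the plus strand of hg38. Capitals mark words of the AP-1 family (TGAGTCA), of the TEAD family (GGAATG followed by T, C or A) or of the RUNX family (TGTGGTT, with TGCGGTT as the other form). All were searched on both strands. The windows were chr15:66185568-66185867 for MEGF11 and chr15:29432593-29432892 for ENTREP2, which opened in the cytokine contrast. For the peaks that closed in that contrast they were chr18:6994476-6994775 for LAMA1 and chr4:140894329-140894628 for RNF150. They were chr5:37072251-37072550 for NIPBL and chr2:33484281-33484580 for RASGRP3, which opened in the belinostat contrast, and chr17:55588752-55589051 for SMIM36 and chr11:35116985-35117284 for CD44, which closed in it. The window of the densest peak, in an intron of PKNOX2, was chr11:125263291-125263590. A peak is named after the gene it lies in or, between genes, after the nearest protein-coding start, with no claim that it acts on that gene. Distances to a gene are to the nearest start of any of its annotated transcripts, which need not be where the gene begins.
MEGF11 peak: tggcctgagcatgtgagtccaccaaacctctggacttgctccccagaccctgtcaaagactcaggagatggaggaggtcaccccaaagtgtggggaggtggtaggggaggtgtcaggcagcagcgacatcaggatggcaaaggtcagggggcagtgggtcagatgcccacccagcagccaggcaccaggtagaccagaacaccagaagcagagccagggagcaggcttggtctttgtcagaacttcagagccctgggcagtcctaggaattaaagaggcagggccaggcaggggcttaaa
ENTREP2 peak: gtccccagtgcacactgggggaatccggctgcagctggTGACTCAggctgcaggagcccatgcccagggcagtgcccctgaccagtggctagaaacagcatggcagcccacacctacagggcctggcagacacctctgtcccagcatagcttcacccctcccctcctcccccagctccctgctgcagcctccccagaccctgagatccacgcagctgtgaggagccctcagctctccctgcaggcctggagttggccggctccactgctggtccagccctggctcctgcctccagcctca
LAMA1 peak: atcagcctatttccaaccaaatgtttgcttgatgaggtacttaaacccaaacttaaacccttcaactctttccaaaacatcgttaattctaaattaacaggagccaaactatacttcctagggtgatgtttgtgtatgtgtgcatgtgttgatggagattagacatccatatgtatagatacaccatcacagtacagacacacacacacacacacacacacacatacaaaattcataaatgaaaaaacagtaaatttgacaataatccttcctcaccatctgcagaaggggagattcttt
RNF150 peak: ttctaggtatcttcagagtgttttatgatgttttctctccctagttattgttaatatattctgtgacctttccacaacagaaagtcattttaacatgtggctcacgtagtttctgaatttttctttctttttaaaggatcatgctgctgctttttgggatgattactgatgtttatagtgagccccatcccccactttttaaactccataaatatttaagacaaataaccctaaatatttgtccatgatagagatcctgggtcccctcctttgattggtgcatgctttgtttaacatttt
NIPBL peak: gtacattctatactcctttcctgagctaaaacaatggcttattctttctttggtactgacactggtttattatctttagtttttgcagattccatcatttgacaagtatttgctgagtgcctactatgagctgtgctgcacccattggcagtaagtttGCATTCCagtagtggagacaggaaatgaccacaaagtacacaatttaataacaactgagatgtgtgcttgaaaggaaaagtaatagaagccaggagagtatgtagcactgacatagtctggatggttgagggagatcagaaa
RASGRP3 peak: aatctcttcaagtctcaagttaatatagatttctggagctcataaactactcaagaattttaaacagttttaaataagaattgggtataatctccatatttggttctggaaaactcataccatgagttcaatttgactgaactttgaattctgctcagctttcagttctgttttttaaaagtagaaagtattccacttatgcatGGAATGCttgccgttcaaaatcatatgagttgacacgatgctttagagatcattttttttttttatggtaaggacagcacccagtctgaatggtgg
SMIM36 peak: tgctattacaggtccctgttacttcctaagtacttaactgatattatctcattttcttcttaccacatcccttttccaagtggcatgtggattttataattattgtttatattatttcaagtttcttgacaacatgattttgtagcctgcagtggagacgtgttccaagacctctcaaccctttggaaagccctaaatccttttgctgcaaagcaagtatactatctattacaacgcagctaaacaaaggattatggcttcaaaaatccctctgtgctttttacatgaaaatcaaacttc
CD44 peak: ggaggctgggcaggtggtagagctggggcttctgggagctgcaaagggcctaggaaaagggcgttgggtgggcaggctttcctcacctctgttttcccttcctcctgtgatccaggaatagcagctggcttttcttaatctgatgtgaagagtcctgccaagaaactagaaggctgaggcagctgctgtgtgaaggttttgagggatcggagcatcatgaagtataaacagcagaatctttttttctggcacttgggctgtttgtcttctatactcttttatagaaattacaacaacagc
PKNOX2 peak: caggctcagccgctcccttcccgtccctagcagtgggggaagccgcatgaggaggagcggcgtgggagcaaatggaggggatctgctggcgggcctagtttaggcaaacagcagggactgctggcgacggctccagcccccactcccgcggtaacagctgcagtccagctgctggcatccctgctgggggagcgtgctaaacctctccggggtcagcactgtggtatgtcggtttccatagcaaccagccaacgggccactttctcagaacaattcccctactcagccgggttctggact

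Of these 9 windows, ENTREP2 held 1 AP-1 word, and NIPBL and RASGRP3 each held 1 TEAD word. The GC content of the windows of the cytokine-opened peaks was 59% in MEGF11 and 66.7% in ENTREP2. It was 36.7% in LAMA1 and 35% in RNF150, the cytokine-closed peaks. The belinostat windows had 39.3% in NIPBL, 33.3% in RASGRP3, 36% in SMIM36 and 49% in CD44, and PKNOX2 had 63%.

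The wide distal peaks were a small, strong subset of the table. Their width had a median of 1122 bp, with 75% of them at or below 1234 bp and a maximum of 3074 bp. Their average log2 CPM (CPM is the count scaled to a common library size) ran from 0.93 to 6.76 with a median of 3.00, against a median of 0.20 over all autosomal peaks. A member drew a median of 54.2 counts per library, or 46.8 counts per kb of peak, against 21.1 per kb in narrow distal peaks and 108 per kb in wide peaks near a start. All 4307 passed the filter on low counts, which removed 0 of the peaks tested. The spread between libraries of a group, as the median SD of log2 CPM over the members, was 0.19 for the unstimulated group, 0.24 for DMSO and 0.28 for belinostat (n = 6 each).

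More than 1 in 2 of them lay in introns. By the position of the centre, 2436 (56.6%) were intronic, 1660 (38.5%) intergenic and 211 (4.90%) exonic, close to the 57.9%, 37.4% and 4.75% of narrow distal peaks. The median distance was 13124 bp to the nearest start of any gene type and 25653 bp to the nearest protein-coding start, and 795 members (18.5%) lay over 100 kb from a protein-coding start. In base composition they were unlike wide peaks near a start. The median GC content was 47.8% against 63.9%, and 286 members (6.64%) were CpG-rich (GC over 50% and an observed to expected CpG ratio over 0.6) against 78.3% of wide peaks near a start. Narrow distal peaks were CpG-rich in 1.35% of cases.

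Wide distal peaks were spread over the autosomes and mostly stood alone. They made up 1.80% of the peaks of chromosome 21, the highest share, and 0.839% of those of chromosome 19, the lowest. When members at most 10000 bp apart were joined, 4048 of the 4307 remained alone and 259 (6.01%) fell into 125 clusters, 7 of which held 3 or more. The largest cluster held 5 members over chr1:161444496-161467830, overlapping the gene ENSG00000283360. Their nearest protein-coding start was that of FCGR2A, which encodes a receptor for antibody constant regions. That interval holds near-identical duplicated copies, between which reads can be split.

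As bodies of protein-coding genes go, 1668 held at least 1 wide distal peak, 369 held 2 or more and 15 held 5 or more. ELMO1 (an activator of Rac in cell engulfment and migration), GPC6 (a glypican, a heparan sulphate proteoglycan of the cell surface) and RUNX1 (a transcription factor) held 7 each. PTPRN2 (a receptor-type phosphatase of secretory vesicles) and THSD4 (a matrix protein of microfibrils) held 6 each. So did the readthrough gene ENSG00000282278, which runs through PDGFRA.

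The labelled cell type was checked on peaks at the starts of marker genes. All 10 fibroblast markers examined had a peak within 3000 bp of a start, and the highest average log2 CPM at each had a median of 4.33 over the list. The same value was 2.33 for 8 epithelial markers, 1.73 for 6 endothelial markers and 0.50 for the 6 of 8 immune markers that had a peak. Single markers of these lists overlapped. They ran from 2.14 (DCN) to 5.93 (COL1A1) in the fibroblast list and from -0.11 (KRT20) to 3.84 (KRT8) in the epithelial list. The endothelial list ran from 0.62 (TIE1) to 2.46 (CLDN5). Within the immune list, the T cell marker CD3E stood at -0.33, the B cell marker MS4A1 at -0.64 and the monocyte marker CD14 at 3.75. The list of fibroblast markers had 5 wide distal peaks at 4 genes, the epithelial list 2, the endothelial list 4 and the immune list 0.

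Sequencing depth differed by group. The total of counts in peaks ran from 7077321 to 11352032 over the unstimulated group. It ran from 6488975 to 8066642 with DMSO and from 4661678 to 6370845 with belinostat. The belinostat range lay below those of both other groups, so depth and belinostat treatment cannot be told apart.

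The share of counts that fell in wide distal peaks was lower in both pulsed groups. It was 5.26% ± 0.08 (SD, n = 6) in unstimulated libraries, ranging from 5.16% to 5.38%. In DMSO libraries it was 4.88% ± 0.10 (SD, n = 6), from 4.74% to 4.99%, so the 2 ranges did not overlap. In belinostat libraries it was 4.75% ± 0.19 (SD, n = 6), from 4.49% to 5.03%, a range that overlapped that of DMSO. Wide peaks near a start moved the same way, from 25.5% ± 0.68 to 23.1% ± 0.87 and 22.4% ± 1.44 (SD, n = 6), while narrow distal peaks rose from 39.3% ± 0.76 to 42.1% ± 1.00 and 42.9% ± 1.69 (SD, n = 6). As a share of the counts in all wide autosomal peaks, the members had 17.1% ± 0.28, 17.4% ± 0.41 and 17.5% ± 0.42 (SD, n = 6) in the 3 groups. Library belinostat 1 stood apart from the rest of its group, with 5.03% in wide distal peaks and 39.9% in narrow distal peaks. Without it the mean of the belinostat group in wide distal peaks was 4.69%.

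**Figure D1:**
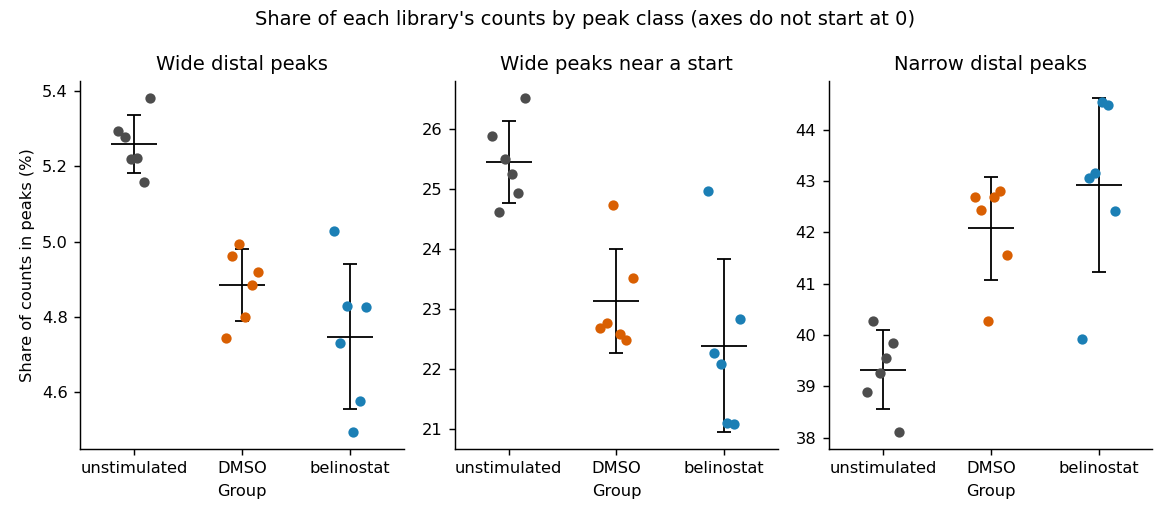
Share of each library's counts in peaks (%, vertical axes, not starting at 0) that fell in wide distal peaks, wide peaks near a start and narrow distal peaks, for the 6 libraries (points) of each group, with mean and SD (black). The 6 unstimulated libraries lay between 5.16% and 5.38% in wide distal peaks, above all DMSO and belinostat libraries.

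The cytokine contrast asked which regions still differed 2 weeks after the treatments that followed the cytokine pulses. With TMM scaling (trimmed mean of M values, 1 factor per library), 440 wide distal peaks opened and 1679 closed at an adjusted p under 0.05 by edgeR's quasi-likelihood test. Over all 334857 peaks, 9.51% opened and 9.73% closed, so the members' 10.2% opened was near that background and their 39.0% closed was above it. Their median log2 fold change was -0.27, against 0.13 over all peaks, and 1070 of them (24.8%) were above 0. Loess offsets, which remove the trend of each library's values with abundance, turned this split around. With them 584 members (13.6%) opened and 232 (5.39%) closed, where 2% of all peaks opened and 1.9% closed, and the members' median was 0.05 against 0.01 over all peaks. Both scalings called 410 members opened and 232 closed. Of the 1679 closed with TMM, 1447 were not called closed with loess offsets and 2 of these were called opened.

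**Figure D2:**
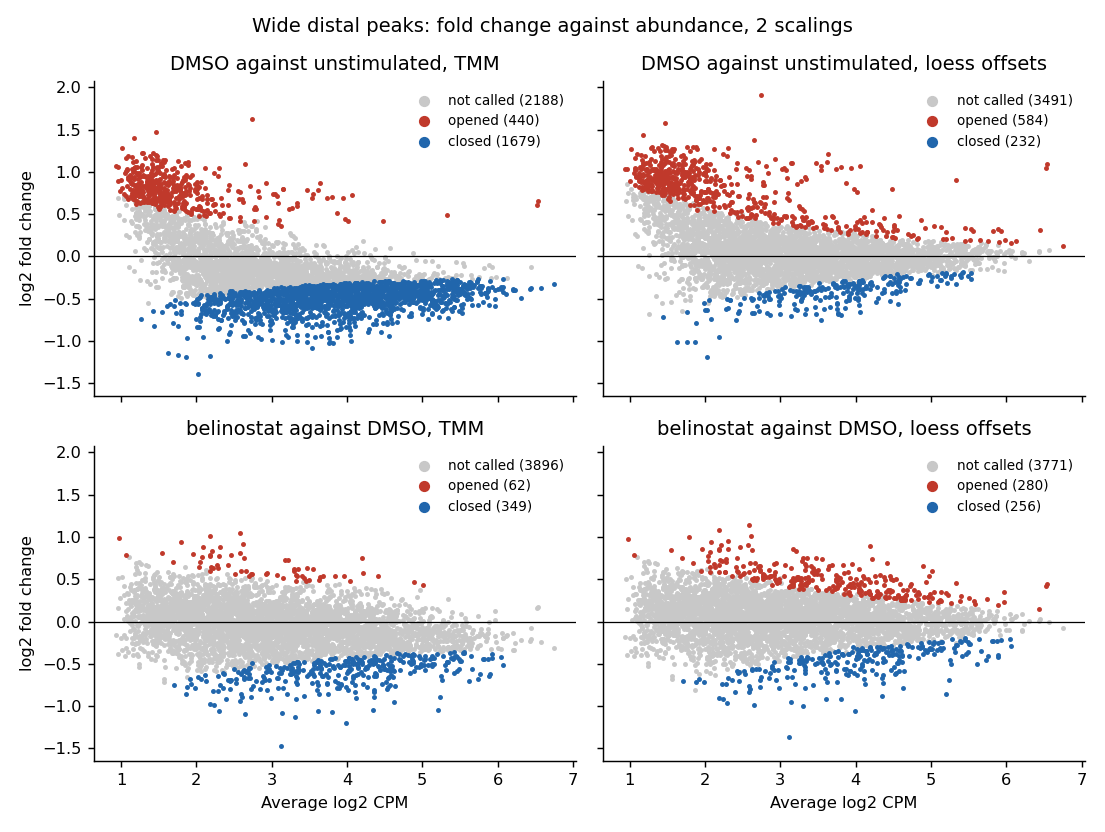
Log2 fold change (vertical axis) against average log2 CPM (horizontal axis) of the 4307 wide distal peaks in the cytokine contrast (top) and the belinostat contrast (bottom), with TMM (left) and loess offsets (right), coloured by call at an adjusted p under 0.05. With TMM the cloud of the cytokine contrast sloped from 440 opened peaks at low abundance to 1679 closed peaks at high abundance, and loess offsets levelled it to 584 and 232.

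Opened members were weak and closed members strong. The members were split into 5 equal ranges of read density. In the lowest (10.9 to 22.4 counts per kb, 862 peaks), 375 (43.5%) opened and 28 closed with TMM, and 363 (42.1%) opened and 8 closed with loess offsets. In the highest (106 counts per kb and over), 3 opened and 692 (80.3%) closed with TMM, and 50 opened and 75 closed with loess offsets. Narrow distal peaks of the same lowest density range opened in 14.6% of cases with TMM and 1.63% with loess offsets, and in the highest range closed in 59.1% and 5.90%. Their median log2 fold change in the lowest range, 0.53 with TMM, was close to the members' 0.49, whereas with loess offsets it was 0.16 against 0.62. A narrow peak of that density drew a median of 4.11 counts per library against 19.5 for a member. Set side by side by average log2 CPM in place of density, members of the lowest of 5 equal ranges opened in 40.1% of cases with TMM and 38.2% with loess offsets, and narrow distal peaks in 4.41% and 3.36%. Wide peaks near a start of the lowest density range opened in 33.4% and 35.6%. Members in that range had a median GC content of 55.1% against 47.8% over all members, and the part of composition, density and counts per peak in these calls was not tested.

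**Figure D3:**
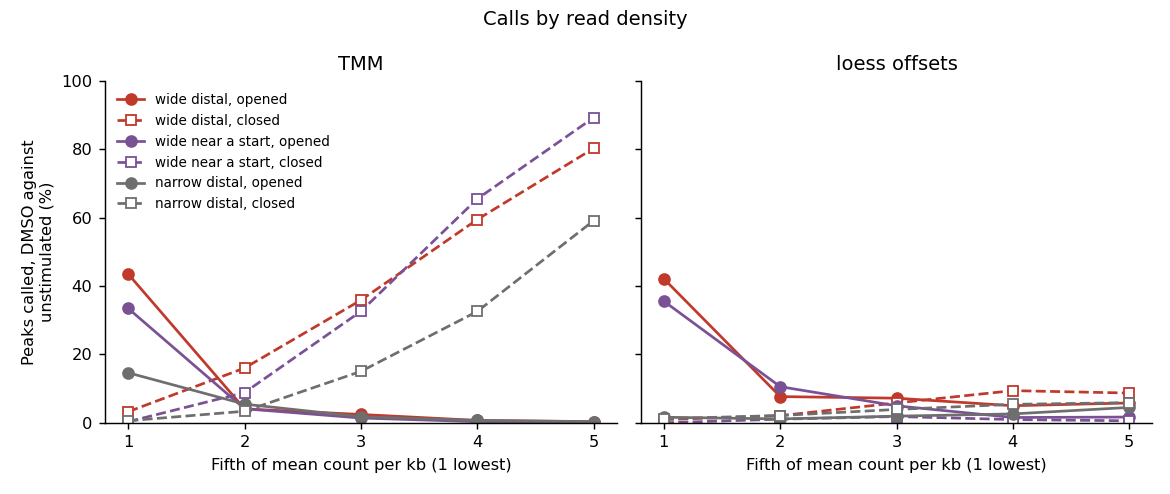
Percentage of peaks called opened (filled circles) or closed (open squares) in the cytokine contrast (vertical axis) in 5 ranges of mean count per kb that each hold an equal number of wide distal peaks (horizontal axis), with TMM (left) and loess offsets (right), for 3 peak classes. Opened wide distal peaks reached 43.5% in the lowest range with TMM and 42.1% with loess offsets.

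The share that opened grew with width. It was 8.22% of the 2980 members under 1200 bp, 12.6% of the 1071 from there to under 1500 bp and 23.4% of the 256 of 1500 bp or more with TMM, and 10.7%, 16.4% and 35.2% with loess offsets. Closed shares were 39.2%, 39.7% and 33.6% with TMM and 5.57%, 5.23% and 3.91% with loess offsets. Intronic members opened in 8.66% and intergenic ones in 12.2% of cases with TMM. Of the 286 CpG-rich members 9 opened and 108 closed with TMM, and 15 opened and 1 closed with loess offsets. The members opened under both scalings had a median GC content of 57.0% and a median width of 1184 bp, and those closed under both had 43.4% and 1112 bp.

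The largest cytokine rises were 1 wide peak of medium level and a series of weak ones. The MEGF11 peak (chr15:66184836-66186600, 1765 bp) lay in an intron of that gene, which encodes a transmembrane protein with EGF-like repeats, 68020 bp from its nearest transcript start. Its log2 CPM had a lowest, median and highest value of 1.46, 1.72 and 2.04 without stimulation, 2.94, 3.38 and 3.48 with DMSO, and 2.56, 2.73 and 3.17 with belinostat. The DMSO libraries all lay above the unstimulated ones, and all belinostat libraries lay between these 2 medians. The log2 fold change of the cytokine contrast was 1.63 ± 0.16 (SE, adjusted p = 6.53e-15) with TMM and 1.91 (adjusted p = 6.53e-22) with loess offsets. Its belinostat change of -0.49 ± 0.15 (SE, adjusted p = 0.04) with TMM and -0.38 (adjusted p = 0.0986) with loess offsets passed with the former of these 2 scalings, and over the 24 alternatives it passed in 12, with adjusted p between 0.0177 and 0.122. The ENTREP2 peak (chr15:29432207-29433278, intronic) had -0.39, -0.02 and 0.98 without stimulation, 1.11, 1.38 and 1.76 with DMSO, and 0.92, 1.61 and 1.85 with belinostat. The DMSO libraries again lay above all unstimulated libraries, at a low level, and the belinostat libraries spanned the DMSO range, with 1 of 6 inside the unstimulated range. The cytokine change was 1.40 ± 0.27 (SE, adjusted p = 8.02e-05) with TMM and 1.44 (adjusted p = 0.00015) with loess offsets.

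The other rises chosen by rule had log2 fold changes between 1.20 and 1.47 with TMM and between 1.27 and 1.58 with loess offsets. They were intronic peaks of COL22A1 (chr8:138869904-138871047, a collagen of tissue junctions), ADCK1 (chr14:77846182-77847295) and SDK1 (chr7:4215465-4216537, a cell adhesion molecule), and intergenic peaks nearest to TMEM18 (chr2:587489-588530), KRT14 (chr17:41594862-41596005, a keratin of basal epithelium) and IFT27 (chr22:36743624-36744635, a subunit of the transport complex of cilia). Their unstimulated and DMSO libraries did not overlap, except those of the KRT14 peak. Average log2 CPM was between 1.02 and 1.46 in these 6 peaks, against 3.00 for the median member.

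Of the 8 largest cytokine falls 6 were intronic. The LAMA1 peak (chr18:6994002-6995249), in an intron of the gene for the laminin alpha 1 chain of basement membranes, had a lowest, median and highest log2 CPM of 2.25, 2.68 and 2.82 without stimulation, 0.92, 1.22 and 1.80 with DMSO, and 1.44, 1.69 and 2.15 with belinostat. No DMSO library reached the lowest unstimulated one, and all belinostat libraries lay above the DMSO median and below every unstimulated library. The cytokine change was -1.39 ± 0.18 (SE, adjusted p = 5.98e-09) with TMM and -1.19 (adjusted p = 6.74e-07) with loess offsets, and the belinostat change of 0.55 ± 0.21 (SE, adjusted p = 0.165) did not pass. The RNF150 peak (chr4:140893944-140895014, intronic, in a RING finger protein gene) had 2.25, 2.55 and 2.97 without stimulation, 1.11, 1.47 and 1.99 with DMSO, and 0.40, 0.64 and 1.317 with belinostat. The medians stepped down from group to group, with no overlap between unstimulated and either pulsed group. Its cytokine change was -1.19 ± 0.18 (SE, adjusted p = 4.01e-07) with TMM and -1.02 (adjusted p = 2.2e-05) with loess offsets, and its residual change of -2.05 ± 0.21 (SE, adjusted p = 4.02e-15) with TMM and -1.82 (adjusted p = 1.02e-11) with loess offsets was the largest fall by rule of that contrast.

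The THRB peak (chr3:24212735-24213824), in an intron of the gene for thyroid hormone receptor beta, had 2.29, 2.81 and 2.90 without stimulation, 1.02, 1.31 and 2.22 with DMSO, and 1.48, 1.99 and 2.76 with belinostat. DMSO lay below all unstimulated libraries, with belinostat in between and overlapping both. Its cytokine change was -1.18 ± 0.18 (SE, adjusted p = 7.78e-07) with TMM and -0.95 (adjusted p = 0.000124) with loess offsets. The remaining falls by rule lay between -1.17 and -1.02 with TMM and between -1.01 and -0.68 with loess offsets. They were introns of USP46 (chr4:52618655-52619747, a deubiquitinase) and ERC2 (chr3:56106614-56107624, a protein of the synaptic active zone), intergenic peaks nearest to KIAA0040 (chr1:175220900-175222250) and RBPMS (chr8:30317498-30318554, an RNA-binding protein of smooth muscle), and a peak in the non-coding gene ENSG00000223786 (chr6:74458507-74459675) whose nearest protein-coding start is that of COL12A1, 629450 bp away. In all 5 the DMSO and unstimulated libraries did not overlap.

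**Figure D4:**
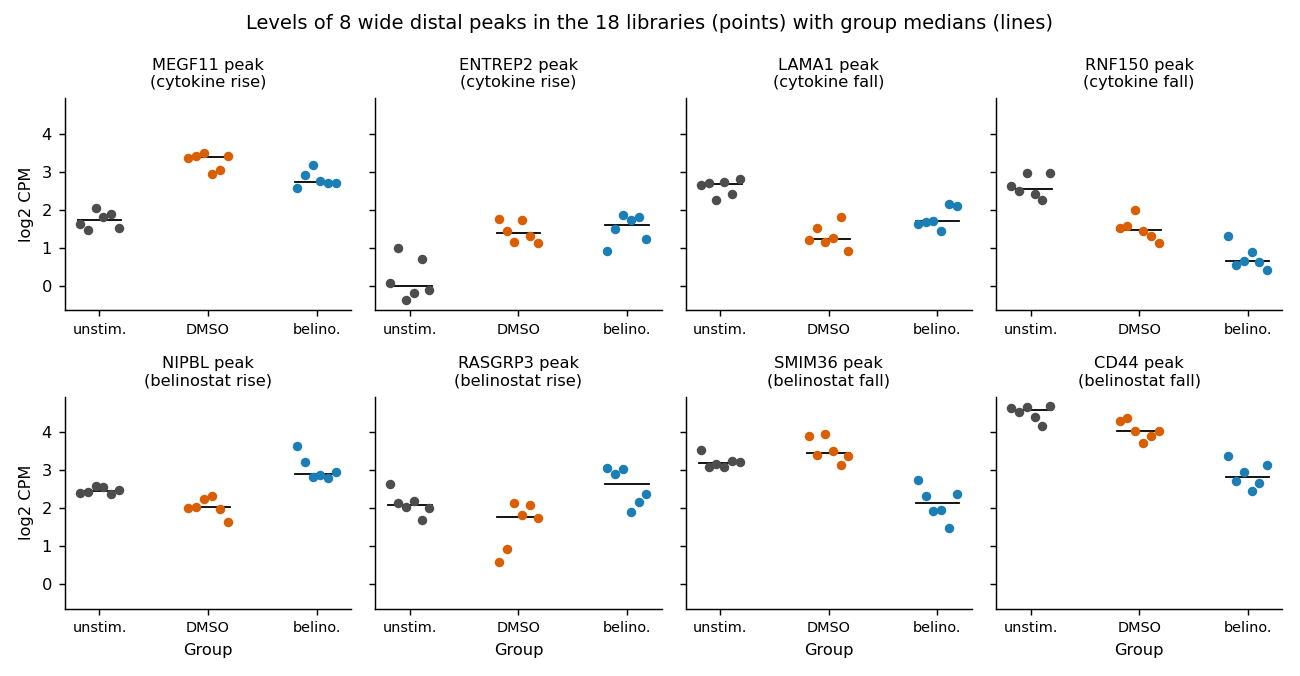
Log2 CPM (vertical axis) of 8 wide distal peaks in the 6 libraries (points) of unstimulated, DMSO and belinostat groups (horizontal axis, group names shortened), with group medians (lines). The peaks are the first 2 rises and falls by rule of the cytokine contrast (top) and the belinostat contrast (bottom), other than those on a chromosome left out of the sequences.

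The belinostat contrast asked what differed between cells given the inhibitor and cells given the solvent after the same pulses. With TMM, 62 members opened and 349 closed, or 1.44% and 8.10%, against 0.607% and 1.75% of all peaks. With loess offsets 280 (6.50%) opened and 256 (5.94%) closed, against 0.945% and 1.51% of all peaks. The 62 and 256 were called under both scalings. Single libraries moved the TMM counts. Leaving out belinostat 1 gave 537 closed and 46 opened members. Fewer members, 41 and 37, opened when DMSO 1 or DMSO 2 was left out, 39 when belinostat 2 was, and 97 when belinostat 4 was. The median log2 fold change of the members was -0.06 with TMM, where all peaks had 0.01, and 0.06 with loess offsets, where all had 0.00. Closed members were again the denser ones, with 163 of 862 (18.9%) in the highest density range closed with TMM and 126 (14.6%) with loess offsets, against 4 and 3 of 862 in the lowest. Narrow distal peaks of the highest density range closed in 18.3% and 14.0% of cases.

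The largest belinostat rises were intronic or intergenic peaks of medium strength. The NIPBL peak (chr5:37071859-37072943) was intergenic, 13497 bp from the nearest annotated transcript start of the gene for the cohesin loader. That start need not be where the gene begins. The peak had a lowest, median and highest log2 CPM of 2.38, 2.45 and 2.59 without stimulation, 1.63, 2.02 and 2.33 with DMSO, and 2.80, 2.91 and 3.65 with belinostat. Belinostat libraries lay above all others, and DMSO libraries below all unstimulated ones. The belinostat change was 1.05 ± 0.16 (SE, adjusted p = 9.64e-07) with TMM and 1.14 (adjusted p = 4.74e-09) with loess offsets. The RASGRP3 peak (chr2:33483899-33484963), in an intron of a gene for an exchange factor of Ras proteins, had 1.70, 2.09 and 2.65 without stimulation, 0.58, 1.78 and 2.14 with DMSO, and 1.89, 2.64 and 3.05 with belinostat. The belinostat libraries overlapped the highest DMSO libraries, and its change was 1.01 ± 0.19 (SE, adjusted p = 0.000163) with TMM and 1.08 (adjusted p = 2e-05) with loess offsets. The HIBADH peak (chr7:27606111-27607207, intronic, an enzyme of valine breakdown) and the KCND3 peak (chr1:111778068-111779100, intronic, a voltage-gated potassium channel) changed by 0.91 ± 0.16 (SE, adjusted p = 3.4e-05) and 0.88 ± 0.20 (SE, adjusted p = 0.00247) with TMM. With loess offsets these changes were 1.01 (adjusted p = 2.66e-07) and 0.945 (adjusted p = 0.000465). The DMSO and belinostat libraries overlapped in both peaks. In KCND3 the unstimulated, DMSO and belinostat medians were 2.25, 1.33 and 2.31.

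The other belinostat rises by rule were between 0.81 and 0.94 with TMM and between 0.90 and 0.99 with loess offsets, and in each the libraries of the 2 groups overlapped. They lay in introns of ZNF654 and CGGBP1 (chr3:88132852-88133970) and of PKN2-AS1 (chr1:87881939-87883102), and between genes nearest to GPAT3 (chr4:83618283-83619292, an enzyme of glycerolipid synthesis) and GATA6 (chr18:22279764-22280806, a zinc finger transcription factor of gut development).

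With TMM the belinostat falls were larger than the rises, and in all 8 the DMSO and belinostat libraries did not overlap. The SMIM36 peak (chr17:55588333-55589470, intergenic, 77449 bp from the nearest transcript start of that gene) had 3.07, 3.20 and 3.54 without stimulation, 3.13, 3.46 and 3.96 with DMSO, and 1.48, 2.13 and 2.74 with belinostat. All belinostat libraries lay below every library of the other groups, and the belinostat change was -1.48 ± 0.16 (SE, adjusted p = 1.58e-12) with TMM and -1.36 (adjusted p = 3.74e-13) with loess offsets. The CD44 peak (chr11:35116575-35117695) was intergenic, 21748 bp from the nearest transcript start of the gene for the hyaluronan receptor. It had 4.16, 4.59 and 4.69 without stimulation, 3.71, 4.04 and 4.37 with DMSO, and 2.44, 2.82 and 3.37 with belinostat. The medians stepped down over the groups, with belinostat below all DMSO libraries. Its belinostat change was -1.20 ± 0.14 (SE, adjusted p = 2.98e-11) with TMM and -1.05 (adjusted p = 4.63e-13) with loess offsets.

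The MAP3K14 peak (chr17:45345415-45346482) was intergenic, 28919 bp from the nearest transcript start of the gene for a kinase of the non-canonical NF-kB pathway. It had 3.74, 3.82 and 4.23 without stimulation, 3.03, 3.29 and 3.62 with DMSO, and 1.95, 2.18 and 2.46 with belinostat. The 3 groups did not overlap. The belinostat change was -1.13 ± 0.16 (SE, adjusted p = 3.25e-08) with TMM and -0.999 (adjusted p = 1.77e-08) with loess offsets. The other falls by rule were between -1.10 and -1.06 with TMM and between -0.99 and -0.92 with loess offsets. These were introns of SYNE1 (chr6:152598480-152599597, a protein that links the nucleus to actin), FAM107B (chr10:14751353-14752450), LINC00457 (chr13:34458643-34460183) and LINC02698 (chr11:115776616-115777660), and a peak nearest to NODAL (chr10:70430383-70431401, a ligand of the TGF-beta family).

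In the residual contrast, 508 members opened and 2080 closed with TMM, or 11.8% and 48.3%, where 16.8% and 13.7% of all peaks did. With loess offsets 975 (22.6%) opened and 479 (11.1%) closed, against 3.82% and 4.92% of all peaks. The scalings shared 494 opened and 479 closed members, and 59 closed with TMM were opened with loess offsets. The EGFLAM peak (chr5:38369623-38370711), in an intron of a gene for a matrix protein, had 3.94, 4.00 and 4.31 without stimulation, 2.60, 3.11 and 3.33 with DMSO, and 2.11, 2.36 and 2.56 with belinostat. The 3 groups did not overlap, and the residual change was -1.74 ± 0.14 (SE, adjusted p = 2.04e-21) with TMM and -1.29 (adjusted p = 2.37e-16) with loess offsets. Besides ENTREP2, the largest rises were the exonic GLYATL1 peak (chr11:58934144-58935287) at 1.40 with either scaling and an intergenic peak nearest to PPP2R2D (chr10:131737478-131738696, a regulatory subunit of a phosphatase) at 1.40 with TMM and 1.55 with loess offsets.

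Set side by side, the members called in 1 contrast had these levels in the 3 groups. The 410 opened in the cytokine contrast under both scalings had median log2 CPM values of 0.99 for the unstimulated group, 1.78 for DMSO and 1.74 for belinostat. The 232 closed ones had 4.22, 3.43 and 3.42. The 62 opened in the belinostat contrast had 2.80, 2.38 and 3.01, and the 256 closed ones had 4.49, 4.10 and 3.49. The DMSO libraries enter both contrasts, and these members were chosen on them, so the levels are a description. For both cytokine sets the belinostat median lay nearer to DMSO than to unstimulated.

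The widest members were not the densest. The widest, chr21:9246065-9249138 (3074 bp), lies on the short arm of chromosome 21, where near-identical copies can share reads, and had 2.21, 3.08 and 3.25 without stimulation, 3.50, 3.76 and 4.27 with DMSO, and 2.98, 3.92 and 4.37 with belinostat. DMSO libraries lay above all unstimulated ones, with a cytokine change of 0.87 ± 0.14 (SE, adjusted p = 2.7e-06) with TMM and 1.21 (adjusted p = 9.93e-12) with loess offsets. Of the 5 widest, 3 more were an intergenic peak nearest to ZNF678 (chr1:227464108-227466920, 2813 bp), an intronic peak of GALNT9 (chr12:132236295-132239093, 2799 bp, an enzyme of O-glycan synthesis) and a peak nearest to GPC1 (chr2:240411483-240414088, 2606 bp), with cytokine changes of 0.78, 1.10 and 0.68 with TMM. Their density was between 12.5 and 15.2 counts per kb. Another of the 5 widest, chr7:5522925-5525627 (2703 bp), 3823 bp from a start of ACTB, the gene of beta-actin, was unlike them at 157 counts per kb. It had 5.94, 5.99 and 6.58 without stimulation, 5.72, 5.99 and 6.27 with DMSO, and 5.14, 5.58 and 6.03 with belinostat, with overlap between all groups. Its cytokine change was -0.13 ± 0.11 (SE, adjusted p = 0.402) with TMM and 0.30 (adjusted p = 3.46e-05) with loess offsets, and its belinostat change -0.43 ± 0.11 (SE, adjusted p = 0.0101) with TMM and -0.22 (adjusted p = 0.0136) with loess offsets.

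The 5 densest members had cytokine changes below 0 with TMM and above 0 with loess offsets. The PKNOX2 peak (chr11:125262933-125263948, 659 counts per kb), in an intron of a homeobox gene 3358 bp from the nearest start of any type, had 6.64, 6.90 and 7.10 without stimulation, 6.33, 6.51 and 6.61 with DMSO, and 5.89, 6.30 and 6.48 with belinostat. DMSO lay below all unstimulated libraries, and its cytokine change was -0.37 ± 0.10 (SE, adjusted p = 0.00553) with TMM and 0.08 (adjusted p = 0.29) with loess offsets. The next 4 by density were an exonic peak of SDR42E2 (chr16:22190279-22191584), an intergenic peak nearest to FABP6 (chr5:160164931-160166099, a bile acid binding protein of the ileum), an intronic peak of TRPM3 (chr9:70600978-70602171, a cation channel) and one of ZNF295-AS1 (chr21:42040035-42041050). Their cytokine changes were between -0.39 and -0.13 with TMM and between 0.05 and 0.32 with loess offsets. The SDR42E2 peak closed with TMM (adjusted p = 0.013) and opened with loess offsets (adjusted p = 0.044). TRPM3 was not called with TMM (adjusted p = 0.386) and opened with loess offsets (adjusted p = 5.62e-07). FABP6 and ZNF295-AS1 closed with TMM (adjusted p = 0.00355 and 0.00787) and were not called with loess offsets (adjusted p = 0.532 and 0.438). None of these peaks had a belinostat change that passed with either scaling.

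Genes of known pathways were followed through lists, in which a member belonged to a gene if it lay in its body or nearest to its protein-coding start. The counts of each list stand against the shares over all members. In the cytokine contrast 10.2% of all members opened and 39.0% closed with TMM, and 13.6% and 5.39% with loess offsets. In the belinostat contrast the shares were 1.44% and 8.10% with TMM and 6.50% and 5.94% with loess offsets. Over all peaks the cytokine shares were 9.51% and 9.73% with TMM and 2% and 1.9% with loess offsets, and the belinostat shares 0.607% and 1.75%, and 0.945% and 1.51%. The lists were not tested against other members, so nothing here is particular to a list. The list of 25 genes for collagens and other matrix proteins also took in TNS1, whose product is an intracellular protein of focal adhesions. Of the 25 genes, 17 had 36 members, of which 0 opened and 22 (61.1%) closed in the cytokine contrast with TMM, and 0 and 4 with loess offsets. TNS1 had 5 of the 36, of which 3 closed with TMM and 0 with loess offsets. The median log2 fold change of the 36 was -0.37 with TMM, against -0.27 for all members, and -0.11 with loess offsets. In the belinostat contrast 1 opened and 3 closed with TMM and 4 opened and 2 closed with loess offsets, with medians of -0.06 and 0.06. A peak nearest to THBS1 (chr15:39511736-39512943), the gene of the adhesive glycoprotein thrombospondin 1, had 4.86, 5.04 and 5.21 without stimulation, 4.28, 4.45 and 4.62 with DMSO, and 3.44, 3.71 and 4.00 with belinostat. The 3 groups did not overlap. Its cytokine change was -0.63 ± 0.11 (SE, adjusted p = 1.73e-05) with TMM and -0.25 (adjusted p = 0.0195) with loess offsets and its belinostat change -0.72 ± 0.12 (SE, adjusted p = 1.24e-05) with TMM and -0.54 (adjusted p = 2.32e-06) with loess offsets.

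The TGF-beta and BMP list had 26 members at 14 of 24 genes, with 1 opened and 18 (69.2%) closed in the cytokine contrast with TMM and 2 and 1 with loess offsets. SMAD6, an inhibitor of BMP signals, had 5 members, all closed with TMM and 1 with loess offsets. The strongest by p (chr15:66747727-66748839, intronic) had 4.82, 4.95 and 5.30 without stimulation, 3.53, 4.20 and 4.44 with DMSO, and 3.69, 3.99 and 4.32 with belinostat. DMSO and belinostat lay below all unstimulated libraries, with a cytokine change of -0.90 ± 0.12 (SE, adjusted p = 3.57e-09) with TMM and -0.52 (adjusted p = 2.75e-07) with loess offsets.

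Signal genes of the cytokines used had few members. The NF-kB and TNF feedback list had 2, both closed in the cytokine contrast with TMM and neither with loess offsets. For belinostat, 0 of them were called with TMM and 1 opened with loess offsets. The one nearest to NFKB1 (chr4:102620040-102621182), the gene of an NF-kB subunit, changed by -0.52 ± 0.13 (SE, adjusted p = 0.00238) with TMM and -0.20 (adjusted p = 0.267) with loess offsets. Of 17 genes for OSM, IL-1 and IL-17 receptors and signal proteins, 5 had 6 members, of which 2 closed with TMM and 1 with loess offsets. That one lay in SOCS3-DT (chr17:78365738-78366869), 6226 bp from the nearest transcript start of SOCS3, the feedback inhibitor of JAK-STAT signals. It had 3.79, 4.00 and 4.16 without stimulation, 2.40, 3.37 and 3.58 with DMSO, and 2.83, 3.12 and 3.30 with belinostat. DMSO and belinostat libraries lay below every unstimulated one. The cytokine change was -0.70 ± 0.13 (SE, adjusted p = 4.72e-05) with TMM and -0.37 (adjusted p = 0.0222) with loess offsets, and the belinostat change of -0.18 ± 0.14 (SE, adjusted p = 0.538) did not pass.

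Members at transcription factor genes also closed more often than they opened with TMM, as the members as a whole did. The gut mesenchyme and mesenchymal factors had 43 members at 14 of 22 genes, with 1 opened and 16 (37.2%) closed in the cytokine contrast with TMM and 4 and 3 with loess offsets. In the belinostat contrast 2 opened and 4 closed with TMM and 4 and 4 with loess offsets. A peak nearest to NR2F1 (chr5:93208023-93209109, an orphan nuclear receptor) changed by -0.81 ± 0.15 (SE, adjusted p = 3.67e-05) with TMM and -0.52 (adjusted p = 0.00894) with loess offsets in the cytokine contrast. A peak in PITX1-AS1 (chr5:135106041-135107046), nearest to the homeobox gene PITX1, changed by -0.86 ± 0.16 (SE, adjusted p = 7.1e-05) with TMM and -0.73 (adjusted p = 0.000191) with loess offsets in the belinostat contrast, with overlapping libraries. GLI2, a transcription factor of hedgehog signals, had 6 members, of which 1 opened with TMM and 3 with loess offsets. The AP-1 list had 7 members, 1 opened and 5 closed with TMM and 1 and 0 with loess offsets, of which the 4 nearest to FOSL2 closed with TMM and 0 of the 4 with loess offsets. The opened one was nearest to BATF. The RUNX and CEBP list had 10 members, 8 of them at RUNX1, with 0 opened and 7 closed with TMM and 0 and 0 with loess offsets. The TEAD and YAP list had 10, with 1 opened and 4 closed with TMM and 1 and 0 with loess offsets. Neither AP-1, RUNX and CEBP nor TEAD and YAP genes had a member called in the belinostat contrast with TMM, and with loess offsets 1 member of the RUNX and CEBP list opened.

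Inflammatory fibroblasts (IF) are a stromal state of ulcerated bowel, and the gene lists for it follow the study's own naming, so they are no independent evidence of a direction. Of its 5 transcription factors, GLI3 had 3 members, of which 1 closed in the cytokine contrast with TMM and 0 with loess offsets. That peak (chr7:42350731-42351952) had 2.86, 3.47 and 3.75 without stimulation, 2.40, 2.94 and 3.23 with DMSO, and 2.05, 2.60 and 2.76 with belinostat. Unstimulated and DMSO libraries overlapped, and the cytokine change was -0.49 ± 0.14 (SE, adjusted p = 0.00906) with TMM and -0.19 (adjusted p = 0.37) with loess offsets. The call was also lost with DESeq2, with library totals and without unstimulated 6, where the change was -0.41. Of 15 IF markers only TNC, the gene of the matrix protein tenascin C, had members, and these by nearest start alone. They lay 366224 and 497580 bp from that start, in introns of ENSG00000228714, which is not protein-coding. Of the 2 members assigned to TNC, the nearer one (chr9:115483692-115485171) closed with TMM. Its cytokine change was -0.56 ± 0.14 (SE, adjusted p = 0.00261) with TMM and -0.25 (adjusted p = 0.195) with loess offsets, and it did not pass with the latter. The contractile stroma list had 5 members, 3 closed with TMM and 0 with loess offsets, and the universal fibroblast list 5, with 3 closed and 0. In the belinostat contrast 0 of the members of these 4 lists were called with TMM, and 1 of each of the last 2 lists opened with loess offsets.

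Adhesion and actin genes had 21 members at 12 of 26 genes, with 0 opened and 9 (42.9%) closed in the cytokine contrast with TMM and 1 and 2 with loess offsets. For belinostat against DMSO, 0 opened and 3 closed with TMM and 4 opened and 1 closed with loess offsets, with medians of -0.17 and -0.04. An intronic peak of PALLD (chr4:168674154-168675287, an actin-binding protein of stress fibres) changed by -0.81 ± 0.13 (SE, adjusted p = 1.18e-06) with TMM and -0.47 (adjusted p = 0.000676) with loess offsets, with no overlap between unstimulated and DMSO libraries. An intronic peak of ITGB5 (chr3:124812247-124813404, an integrin subunit) had 4.23, 4.31 and 4.55 without stimulation, 3.65, 3.71 and 4.15 with DMSO, and 2.85, 3.13 and 3.39 with belinostat. The 3 groups did not overlap, and its belinostat change was -0.72 ± 0.13 (SE, adjusted p = 8.51e-05) with TMM and -0.56 (adjusted p = 8.08e-05) with loess offsets. The fibroblast markers had 5 members at 4 of 10 genes, of which 0 opened and 5 closed in the cytokine contrast with TMM and 0 and 1 with loess offsets. In the belinostat contrast 0 opened and 1 closed with either scaling, and the median log2 fold change was 0.05 with TMM and 0.20 with loess offsets. The closed one, in PDGFRA (chr4:54254499-54255536), the gene of a growth factor receptor, had 3.28, 3.45 and 3.63 without stimulation, 2.58, 3.01 and 3.40 with DMSO, and 1.61, 2.25 and 2.29 with belinostat. Belinostat libraries lay below all DMSO libraries, and the belinostat change was -0.91 ± 0.16 (SE, adjusted p = 4.18e-05) with TMM and -0.79 (adjusted p = 0.000104) with loess offsets. The other member in PDGFRA (chr4:54232846-54234032) was not called in that contrast, with a belinostat change of 0.08 ± 0.12 (SE, adjusted p = 0.777) with TMM and 0.24 (adjusted p = 0.0628) with loess offsets. A peak 6347 bp from the nearest annotated transcript start of COL3A1 (chr2:189014059-189015241), a fibrillar collagen, changed by -0.65 ± 0.11 (SE, adjusted p = 2e-05) with TMM and -0.27 (adjusted p = 0.013) with loess offsets in the cytokine contrast. That start need not be where the gene begins.

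The genes and the cluster with the most members were read against the shares of all wide distal peaks in the cytokine contrast, 10.2% opened and 39.0% closed with TMM and 13.6% and 5.39% with loess offsets, and with so few members each these counts show nothing particular to a gene. With TMM, 5 of the 7 members in RUNX1 closed in the cytokine contrast and 0 opened, 4 of 7 in GPC6 and 3 of 7 in ELMO1 closed, and with loess offsets 0 in RUNX1, 1 in GPC6 and 2 in ELMO1 did. PTPRN2 was the other way round, with 4 of 6 members opened under either scaling and 0 closed. In the cluster near FCGR2A, 5 of 5 members opened with either scaling, with a median log2 fold change of 0.69 with TMM and 1.04 with loess offsets. The ELMO1 peak with the smallest cytokine p (chr7:37082959-37084116) changed by -0.83 ± 0.14 (SE, adjusted p = 6.57e-06) with TMM and -0.52 (adjusted p = 0.00277) with loess offsets and that of GPC6 (chr13:93955953-93956966) by -0.87 ± 0.13 (SE, adjusted p = 5.92e-07) with TMM and -0.53 (adjusted p = 0.000107) with loess offsets. Neither had overlap between unstimulated and DMSO libraries. In RUNX1 (chr21:34913735-34914743) the value was -0.57 ± 0.12 (SE, adjusted p = 0.000508) with TMM and -0.23 (adjusted p = 0.117) with loess offsets. The PTPRN2 peak with the smallest cytokine p (chr7:158097605-158098926) had -0.12, 0.68 and 1.14 without stimulation, 1.12, 1.70 and 2.10 with DMSO, and 1.63, 1.75 and 2.24 with belinostat. Its unstimulated and DMSO libraries overlapped slightly, and it changed by 1.18 ± 0.23 (SE, adjusted p = 0.000146) with TMM and 1.29 (adjusted p = 7.96e-05) with loess offsets, in the other direction from the 3 above.

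Short words known for transcription factor families were counted in the central 300 bp, on both strands, as a description with no test. The centre of a wide peak need not be its point of highest signal. A TEAD word was present in 18.0% of the 4307 members, against 17.7% of narrow distal and 16.6% of all autosomal peaks. An AP-1 word was present in 11.0%, against 13.8% and 12.9%, and a RUNX word in 9.01%, against 8.52% and 8.10%. The E-box words CAGCTG and CATCTG (known from basic helix-loop-helix factors, the latter from TWIST) were present in 24.4% and 25.5%, against 23.2% and 25.9% of all autosomal peaks, and the forkhead word TGTTTAC in 8.68% against 5.97%. The GC box GGGGCGGGG was in 2.21% of members and in 19.4% of wide peaks near a start. In the 3 middle ranges of 5 by average log2 CPM, AP-1 words were in 11.7% of the members and in 24.97% of narrow distal peaks of the same abundance, and TEAD words in 19.3% and 23.2%. In the same pooled ranges the forkhead word was in 10.3% of members and 10.6% of narrow distal peaks, and the RUNX word in 8.44% and 11.7%. Over the whole length of a member, 34.5% held an AP-1 word, 51.6% a TEAD word and 29.0% a RUNX word. Up to 15 TEAD words lay in 1 peak, a count found in the widest member (chr21:9246065-9249138). That member lies on the short arm of chromosome 21, where near-identical copies can share reads. Words of different families may share bases.

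Words were unevenly spread over the called members. TEAD words were in 32.3% of the 62 members that opened and in 16.8% of the 256 that closed in the belinostat contrast under both scalings. AP-1 words were in 9.68% of the opened and 17.2% of the closed, and CATCTG was in 9.68% and 43.0%. In narrow distal peaks called in the same way, TEAD words were in 42.2% of 1051 opened and 14.5% of 3116 closed peaks, AP-1 words in 8.66% and 27.2% and CATCTG in 20.7% and 42.2%. In the cytokine contrast, the 410 opened members had a TEAD word in 10% and an AP-1 word in 3.90% of cases, and the 232 closed ones in 26.7% and 7.76%. The median GC content of the central windows was 57.7% in those opened and 41% in those closed, and the part of base composition in these shares was not tested. In the 8 central windows shown above for the contrasts, the TEAD words lay in the 2 of peaks that opened in the belinostat contrast. Outside its window the MEGF11 peak also held 1 TEAD word.

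**Figure D5:**
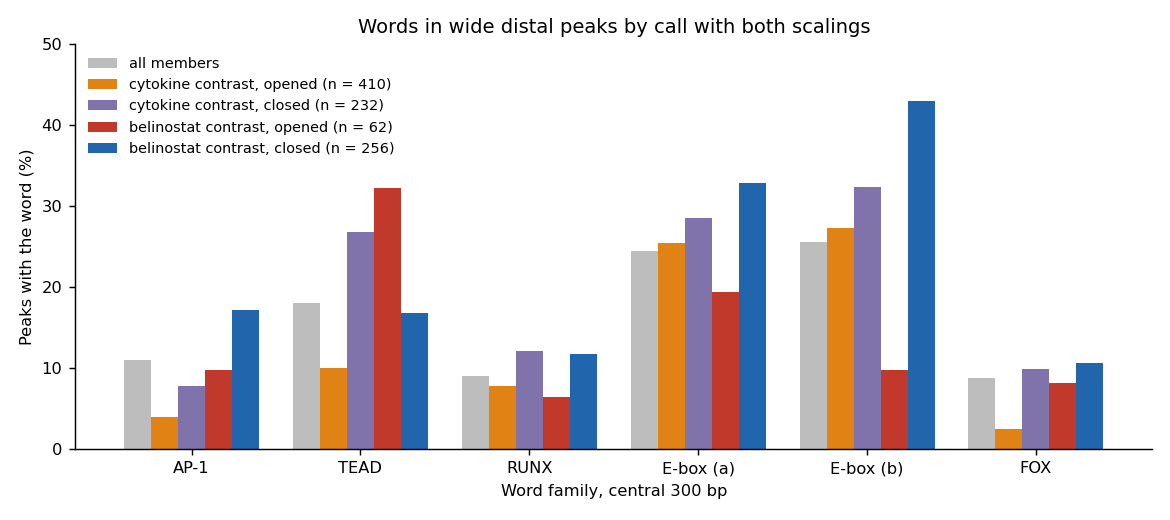
Percentage of wide distal peaks (vertical axis) with a word of 6 families in the central 300 bp (horizontal axis), for all 4307 members and for those opened or closed under both scalings in the cytokine and belinostat contrasts. E-box (a) is CAGCTG and E-box (b) is CATCTG, which reached 43.0% in members closed in the belinostat contrast and 9.68% in those opened.

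At the limits of the rule values changed little. The 1060 members less than 50 bp above the width limit had a median average log2 CPM of 2.92 and a median cytokine log2 fold change of -0.28, and the 1369 distal peaks up to 50 bp below it had 2.85 and -0.29. The 149 members with a centre at most 500 bp beyond the distance limit had 3.22 and -0.30, and the 141 wide peaks up to 500 bp inside it had 3.14 and -0.24.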

How the data were processed

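Omni-ATAC-seq counts of 18 Ccd18-Co libraries were analysed. According to the methods of the study, the authors ran the ENCODE ATAC-seq pipeline on trimmed reads against hg38, joined MACS2 peaks of the conditions and counted the fragments of each. The deposited values are these raw counts, without normalization, and the column names say that duplicate and mitochondrial reads were removed. The authors normalized on background bins of reads, which were not analysed here, and unequal background between libraries can shift weak against strong peaks.

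The test was edgeR's quasi-likelihood test (edgeR 4.0.16, R 4.3.3) over all 334857 peaks and 18 libraries, with 1 mean per group and TMM factors. Benjamini-Hochberg adjustment covered every peak in the table. An average log2 CPM over -3 was required, and log2 CPM had a prior count of 2. Alternatives were loess offsets (limma 3.58.1), library totals, TMM over 10 kb bins, DESeq2 1.42.0, an average log2 CPM over 0, a replicate block, each library left out, a minimum width of 1500 bp and a minimum distance of 10000 bp. The 10 kb bins held summed counts of peaks and no background reads, so this setting is not the authors' normalization. Peak positions are hg38, starts are counted from 1, and genes and starts come from GENCODE release 44.

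By rule, the text names the 8 largest rises and falls of the cytokine and of the belinostat contrast, 3 each way of the residual contrast (adjusted p under 0.05 in 1 direction with TMM and loess offsets, average log2 CPM of at least 1), the 5 widest and 5 densest members, the 5 protein-coding genes with the most members, and per gene list or such gene the members with the smallest p. Genes of the lists may be named. THSD4 and the FCGR2A cluster were singled out, and the density ranges and joining distance set, after the data were seen. The belinostat result of the TGF-beta and BMP list is not reported here. The members, lists and rules were chosen with earlier results of these data known.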

Additional observations from a re-analysis of the deposited data

Results flagged for a closer look

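Log2 CPM values of 6 peaks were set apart from the other 5 libraries of their group by the gap to the nearest one, relative to the range of the group. Among 99 groups of 6 libraries tested, 6 were set apart, and chance alone sets apart about 1 in 20. In log2 CPM they were -0.20 for the USP46 peak in belinostat 2, 2.43 for the KIAA0040 peak and 2.81 for the ENSG00000223786 peak, both in DMSO 1, 1.41 for the peak in ZNF654 and CGGBP1 in unstimulated 5, 2.04 for the GATA6 peak in unstimulated 3 and 4.23 for the MAP3K14 peak in unstimulated 6. Leaving out any 1 of these libraries kept the calls that the report gives for these peaks in the contrast that named them. For the USP46 peak, the GATA6 peak and the peak in ZNF654 and CGGBP1, the library lay in a group outside that contrast. The same holds for the belinostat call of the MAP3K14 peak. Leaving the library out therefore says little about these calls.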

How the results depend on the processing

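Counts of called wide distal peaks moved with the scaling, with the limits of the rule and with single libraries. Loess offsets gave 232 closed in the cytokine contrast, 280 opened in the belinostat contrast, and 975 opened and 479 closed in the residual contrast. Library totals gave 683 opened and 822 closed, 170 opened, and 974 and 1141. A minimum width of 1500 bp left 60 opened and 86 closed (cytokine), 1 and 16 (belinostat) and 70 and 98 (residual), and a distance over 10000 bp left 247 and 1064, 41 and 205, and 296 and 1292, since both keep fewer members. With these rules the share of counts was 0.381%, 0.385% and 0.385%, and 3.11%, 2.86% and 2.79%, in the unstimulated, DMSO and belinostat groups. A 600 bp window raised the shares with a word to 21.6% (AP-1), 32.8% (TEAD), 16.7% (RUNX) and 5.11% (CTCF core), by its greater length. Leaving out 1 library gave 307 to 464 opened and 1241 to 1860 closed (cytokine), 37 to 97 and 236 to 537 (belinostat) and 431 to 544 and 1842 to 2269 (residual), and group mean shares of 5.23% to 5.28%, 4.86% to 4.91% and 4.69% to 4.80%. Opened members of the belinostat contrast were 41 without DMSO 1, 37 without DMSO 2, 39 without belinostat 2 and 97 without belinostat 4, and 537 closed without belinostat 1. The cytokine log2 fold change of the CDX2 peak, not called in any setting, went from -0.17 to 0.0485 with library totals and 0.0918 with loess offsets. Deviations of same-numbered libraries from their group means had correlations from -0.20 to 0.11. Of the 6 unstimulated libraries, 3 correlated best with the belinostat library of their own number. The same count was 1 for unstimulated and DMSO and 0 for DMSO and belinostat. With a replicate block the counts were 456 and 1775, 67 and 387, and 514 and 2114. Of 76 named log2 fold changes 58 kept their call and direction under all alternatives. The other 18 included belinostat calls of ELMO1 and GPC6 that single libraries decided. The cause of these shifts was not tested.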
